A study of Homo sapiens with 12 samples.

Results

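Of the 15074 genes in the deposited tables, 73 carry the names of proteins of the mitochondrial ribosome: every protein-coding gene whose symbol begins with MRPL or MRPS and a number, together with DAP3, outside chromosome 7. By their names and established position, 49 were counted with the large subunit and 24 with the small subunit. Of the 73, 43 have a bacterial counterpart and 30 are specific to mitochondria. Another 2 genes that meet the same rule, MRPS18B and MRPL45, were not analysed here, and 3 genes on chromosome 7 (MRPL32, MRPS17 and MRPS33) were left out by the rule. MRPS30 and MRPS18A carry small-subunit names but sit in the large subunit and were counted there. MRPS36 is now regarded as a component of the 2-oxoglutarate dehydrogenase complex (KGD4) and not as a ribosomal protein, but it meets the naming rule and is counted among the 24 and the 73; it was not called in any comparison.

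The mitochondrial ribosome translates the few messenger RNAs of the mitochondrial genome, all of which encode subunits of the respiratory chain and ATP synthase. Its ribosomal RNAs are made inside the organelle, whereas all of its proteins are encoded in the nucleus, made in the cytosol and imported. Its protein genes are expressed in nearly all cells, and their promoters are known for sites of the ETS factor GABP, of NRF1 and of YY1.

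The study sequenced RNA of HCT116, an epithelial cell line from a human colorectal carcinoma, in 4 groups of 3 libraries. FH-5xA and FH-WT are AGO2 knockout cells reconstituted with FH-AGO2 in its 5xA or wild-type form, knockout cells (AGO2_KO) lack the reconstitution, and parental cells are the unmodified line. AGO2 is the Argonaute protein that binds microRNAs and represses their target messenger RNAs, and the series title places the 5xA form in a study of Argonaute phosphorylation. All groups were seeded at 500000 cells per well and collected 48 h later, and libraries were made from total RNA depleted of ribosomal RNA. Each group is a single line per the labels, so every p-value reflects how far wells differed and not between independently made lines.

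The values are those of 5 tables of the authors' own edgeR comparisons, and no value per library was used, so the depth of the libraries is unknown. A gene was called at a false discovery rate (FDR) under 0.05, and each error below is a standard error (SE) derived from the deposited likelihood ratio score. Levels per group, in CPM (counts scaled to library size), were recovered from the deposited mean expression and fold changes and carry no error of their own. AGO2 itself stood at -0.35 ± 0.07 in knockout against parental cells and at 0.75 ± 0.07 in FH-WT against knockout cells (log2 fold change, the authors' deposited tables). Of the epithelial markers, CDH1 stood at -0.97 ± 0.08, EPCAM at -0.58 ± 0.07 and KRT18 at -0.46 ± 0.08, all called, in knockout against parental cells in the authors' deposited table, while KRT8 (FDR 0.0518) and KRT19 (FDR 0.524) were not called. PTPRC, PECAM1, COL1A2 and PDGFRB, markers of blood, endothelium and fibroblasts, are not listed among the 15074 genes.

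In knockout against parental cells, the mRNAs of a part of the mitochondrial ribosomal proteins, of both subunits, were lower, each by less than 1.5-fold, and 39 of the 73 genes were not called. Calls of lower level made up 46.6% of the 73 genes (34 genes) and calls of higher level 0 in the authors' deposited table, where 21.2% of all 15074 genes were called lower and 23.2% higher. The median log2 fold change of the 73 genes was -0.23, against -0.01 over all genes, and 69 of the 73 values lay below 0. Of 2888 protein-coding genes whose mean expression fell between the quartiles of the 73 genes, 24.5% were called lower and the median was -0.01. In bulk RNA, fewer cells of a type and less RNA per cell cannot be told apart. With a t distribution of 8 degrees of freedom in place of the deposited chi-square test, 21 of the 34 were called, 28.8% of the 73 genes, where 15% of all genes were called lower. After an adjustment for transcript length, given next, the share called lower was 17.8%, against 20.8% of all genes.

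Transcript length moved with this result. The median transcript of the 73 genes was 1500 bases long, against 3513 bases over all protein-coding genes. Their median log2 fold change in knockout cells was -0.27 under 1000 bases (12 genes), -0.30 from 1000 to 1500 (24 genes), -0.18 from 1500 to 2000 (18 genes), -0.14 from 2000 to 3000 (11 genes) and -0.08 at 3000 bases or more (8 genes). Over all protein-coding genes of the same classes, short ones also stood lower, with medians of -0.25, -0.15, -0.09, -0.08 and 0.08. After each fold change was recentred on the median of protein-coding genes of its length class, the median of the 73 genes was -0.090, against -0.013 over all genes, and 14 genes were called, 13 lower (17.8%) and 1 higher (1.37%), where 20.8% of all genes were called lower and 21.8% higher. The share of the 73 genes called lower was then no higher than that of all genes. Without recentring, the ribosomal protein genes called lower made up 66.7%, 54.2%, 38.9%, 36.4% and 25% of their length classes, from shortest to longest. Of all protein-coding genes in the same classes, 38.6%, 29.3%, 26.0%, 25.9% and 18.1% were called lower. Of the 34 genes called lower without recentring, 11 remained called, among them MRPL11, MRPS21, MRPL1, MRPL50, MRPS16, MRPS7 and MRPL40. The cause of the relation with length was not tested.

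**Figure D1:**
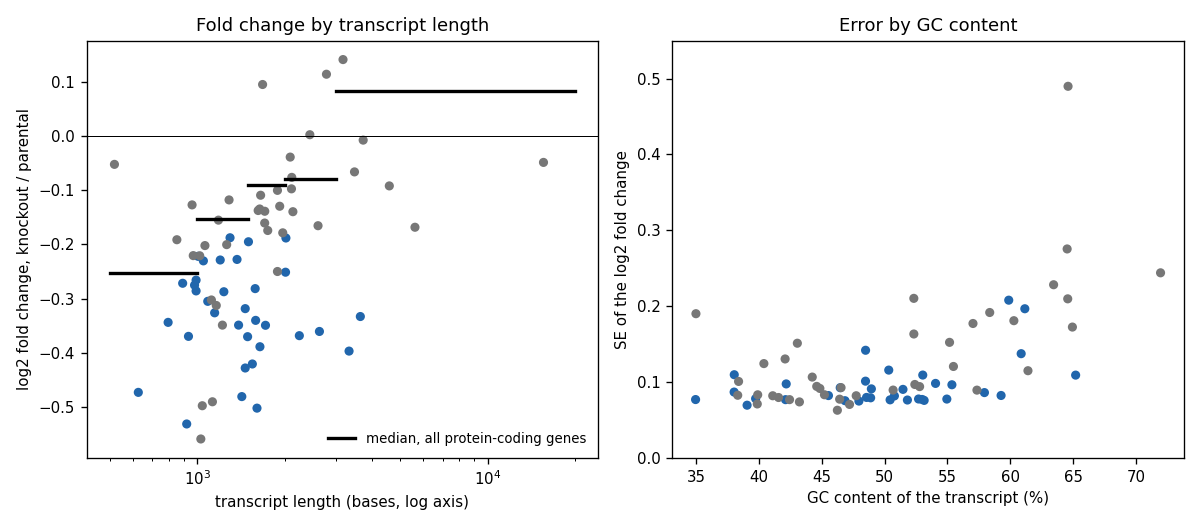
Left, the log2 fold change of knockout against parental cells for each of the 73 genes against the length of its transcript in bases on a log axis, with black bars for the median of all protein-coding genes in each length class. Right, the standard error of the same fold change against the GC content of the transcript in percent. Blue points are the 34 genes called lower. The black bars climb with length, and most blue points lie at or below them, while the errors widen above 60% GC.

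Large-subunit genes made up 24 of the 34 called lower, out of 49 with a median of -0.23, and small-subunit genes 10, out of 24 with a median of -0.21. Among genes with a bacterial counterpart 23 of 43 were called lower, and among the genes specific to mitochondria 11 of 30, with medians of -0.23 and -0.22. The shares called lower were 49.0%, 41.7%, 53.5% and 36.7% in that order, where 21.2% of all genes were called lower. These counts were taken without recentring by length. The difference between these classes was not tested.

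MRPL11, a protein at the base of the stalk that receives translation factors, had the smallest p of the group. Its fitted level was 82.9 CPM in FH-5xA, 76.9 in FH-WT, 72.4 in knockout and 102 in parental cells. In knockout against parental cells it stood at -0.50 ± 0.08 in the authors' deposited table (FDR 9.89e-09). The levels of the other 3 groups all lay below the parental level.

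MRPS21, a small-subunit protein with a bacterial counterpart, stood at 91.9 CPM in knockout and 124 CPM in parental cells, -0.43 ± 0.08 in the authors' deposited table (FDR 7.05e-07). MRPL1, of the mobile stalk next to the exit site for transfer RNA, stood at 70.5 CPM in knockout and 91.1 CPM in parental cells (-0.37 ± 0.07, FDR 8.64e-07, the authors' deposited table). MRPL50, which is specific to mitochondria, stood at 64.9 CPM in knockout and 85.4 CPM in parental cells (-0.40 ± 0.08, FDR 2.00e-06, the authors' deposited table). In each of the 3 genes the level in knockout cells lay below the parental one by less than 1.5-fold.

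The small-subunit proteins MRPS16 and MRPS7 were at -0.36 ± 0.08 (FDR 1.17e-05) and -0.35 ± 0.08 (FDR 3.10e-05) in the authors' deposited table of knockout against parental cells. The large-subunit proteins MRPL21 and MRPL40 were at -0.37 ± 0.09 (FDR 9.57e-05) and -0.35 ± 0.08 (FDR 1.18e-04) in the same authors' deposited table. MRPL21 and MRPL58 were no longer called after recentring by length, at -0.12 and -0.02.

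DAP3, a GTP-binding protein of the small subunit first described for its part in cell death, was not called in any comparison. Its level was 136 CPM in FH-5xA, 136 in FH-WT, 141 in knockout and 145 in parental cells. The authors' deposited table gave -0.04 ± 0.06 in knockout against parental cells (FDR 0.64), with a 95% interval of -0.16 to 0.08. MRPS30 stood at 248, 269, 267 and 250 CPM in the same order of groups, and at 0.09 ± 0.08 in knockout against parental cells in the authors' deposited table (FDR 0.329). After recentring by length MRPS30 was the 1 gene called higher, at 0.19. MRPL22, MRPS27 and MRPL27 were the other genes with a value above 0.

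**Figure D2:**
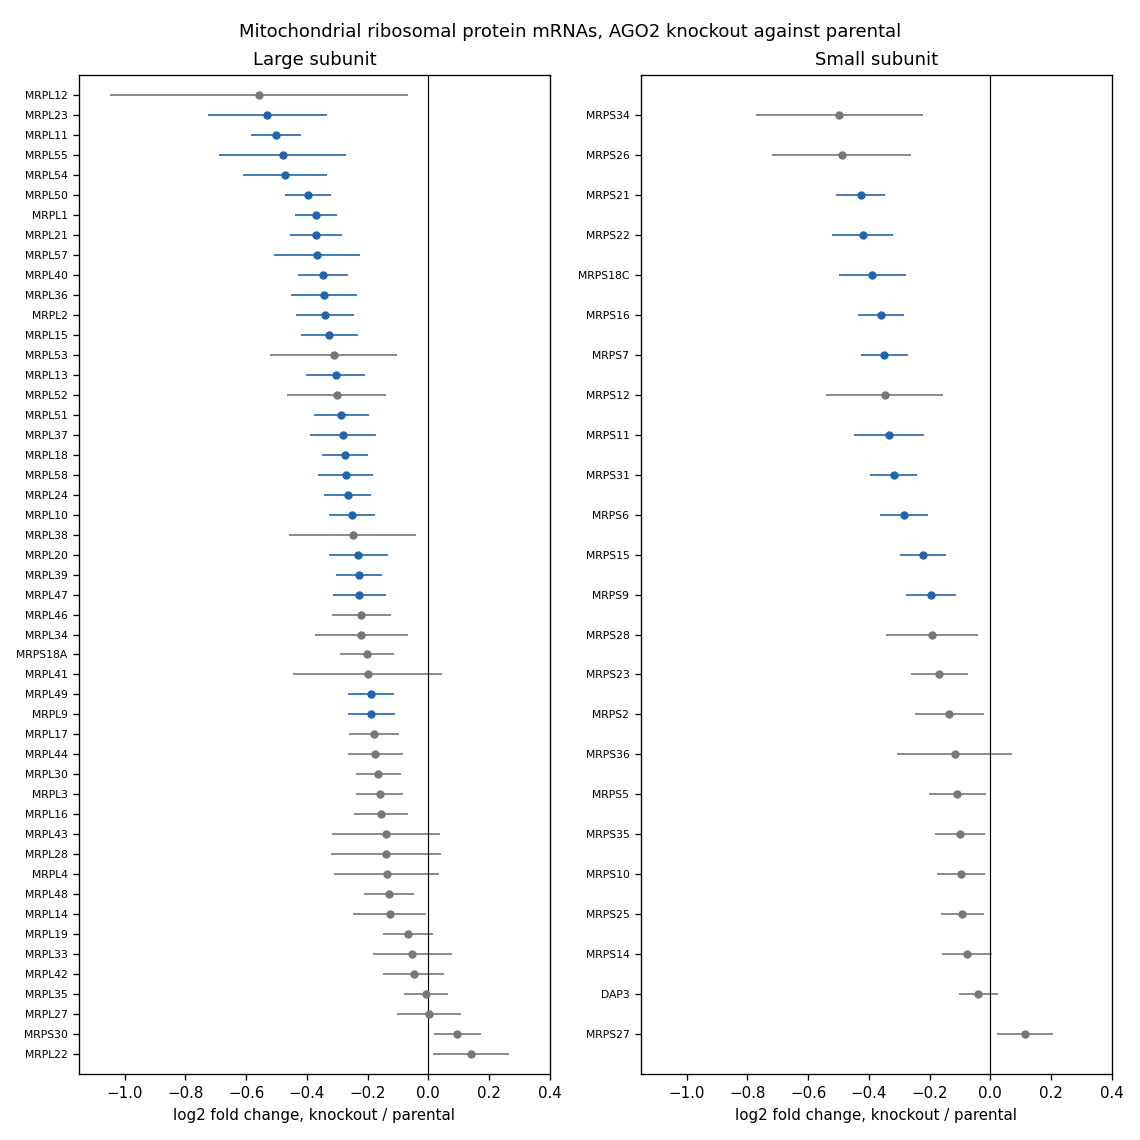
Log2 fold change of knockout against parental cells for the 49 large-subunit genes (left) and 24 small-subunit genes (right), each a point with a bar of 1 standard error. Blue points are the 34 genes called lower, grey points the 39 genes not called. All but 4 points lie left of 0, and the widest bar belongs to MRPL12.

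The paralogs MRPS18A and MRPS18C, related to the same bacterial protein, gave different calls. MRPS18C stood at 29.8 CPM in knockout and 39.0 CPM in parental cells, -0.39 ± 0.11 in the authors' deposited table (FDR 0.00152). MRPS18A stood at 44.3 CPM in knockout and 51.0 CPM in parental cells, -0.20 ± 0.09 (FDR 0.053, the authors' deposited table). MRPS18A was called lower among genes with a mean expression of at least 4 log2 CPM, and after recentring within GC classes, at -0.23. The difference between the paralogs was not tested.

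Errors were uneven across the 73 genes. The median SE in knockout against parental cells was 0.0850 for the 22 genes under 45% GC, 0.0822 for the 31 genes from 45% to 55%, 0.121 for the 9 genes from 55% to 60% and 0.197 for the 11 genes at 60% or more. All protein-coding genes in those classes had median errors of 0.0925, 0.0980, 0.120 and 0.180. Across the 73 genes, GC content and SE had a Pearson correlation of 0.55 and a Spearman correlation of 0.47, a description over genes that share libraries. The share called lower was 20 of 31 in the second class and 3 of 11 in the class of highest GC, whose median fold change was -0.34. Among all protein-coding genes it was 869 of 3728 in the second class and 268 of 1844 in the class of highest GC. A missing call among GC-rich genes thus sat beside a wide error: MRPS34 stood at -0.50 ± 0.28 (FDR 0.131) and MRPS26 at -0.49 ± 0.23 (FDR 0.068) in the authors' deposited table. MRPL41, a large-subunit protein specific to mitochondria whose transcript has 71.9% GC, stood at -0.20 ± 0.24 (FDR 0.529) there and was not called in any comparison.

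MRPL12, a large-subunit protein of the factor-binding stalk, had the widest error. It stood at 11.0 CPM in FH-5xA, 4.91 in FH-WT, 7.66 in knockout and 11.3 in parental cells. The authors' deposited table gave -0.56 ± 0.49 in knockout (FDR 0.367) and -1.20 ± 0.50 in FH-WT (FDR 0.048), both against parental cells. Of its annotated exon bases 68.2% are shared on the same strand with another gene, AC139530.2, so its counts are uncertain. MRPL53 (45.2%), MRPL38 (37.5%), MRPS28 (35.8%) and MRPL33 (21.1%) also overlap other genes on their strand, and none of these 5 genes was among the 34 called lower.

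The highest mean expression was that of MRPL42, MRPS30 and MRPL3, at 8.19, 8.01 and 7.97 log2 CPM, and the lowest that of MRPL53, MRPL23 and MRPL38, at 0.84, 1.32 and 1.84 log2 CPM. Per kilobase of the longest transcript the order changed. In parental cells MRPS34 was highest at 171 CPM per kilobase and MRPL53 lowest at 1.57, with a median of 46.6 over the 73 genes, and MRPL42, whose longest annotated transcript has 15582 bases, stood at 18.5. MRPL23, a protein at the exit of the tunnel for the new chain, was called lower in knockout cells (-0.53 ± 0.20, FDR 0.0186, the authors' deposited table), while MRPL53 (-0.31 ± 0.21) and MRPL38 (-0.25 ± 0.21) were not called in the authors' deposited table. MRPL23 was not called at an FDR under 0.01, with the t distribution or after recentring by length, at -0.28.

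Promoter sequences show what the genes share outside the RNA values. RefSeq promoters (250 bases before to 50 after the start, GRCh38.p14) matched 64 of the 73 genes and were set against 9638 promoters of genes in the tables, with each word searched on both strands. The word CCGGAAG, the core bound by ETS factors such as GABP, was in 28 of the 64 promoters, 43.8%, against 19.9% of all promoters. The word AAGATGGC, bound by YY1, was in 16 of 64, 25.0%, against 5.64%. The NRF1 words GCGCATGC (6.25% against 5.59%) and TGCGCA (15.6% against 13.8%) were near the share of all promoters, as were TATAAA (3.13% against 5.37%) and ACTACAAT (1.56% against 0.923%). The other words searched were GGGCGG (59.4% against 71.8%), CCAAT (28.1% against 36.9%) and CACGTG (7.81% against 10.2%), and TGACGTCA was in 0 of the 64 promoters and 3.35% of all.

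The promoters of 4 genes show the ETS and YY1 words in place, in capitals and on either strand. They were chosen after their values were seen: MRPS21 and MRPL50 were among the 8 smallest p in knockout cells, MRPL51 was called between the reconstituted lines, and MRPS30 was not called in any comparison. MRPS21 has the ETS word at 2 places, MRPL51 has it at 2 places together with the YY1 word, and MRPL50 and MRPS30 have the YY1 word just after the start.
MRPS21 (chr1:150293611-150293910, plus strand): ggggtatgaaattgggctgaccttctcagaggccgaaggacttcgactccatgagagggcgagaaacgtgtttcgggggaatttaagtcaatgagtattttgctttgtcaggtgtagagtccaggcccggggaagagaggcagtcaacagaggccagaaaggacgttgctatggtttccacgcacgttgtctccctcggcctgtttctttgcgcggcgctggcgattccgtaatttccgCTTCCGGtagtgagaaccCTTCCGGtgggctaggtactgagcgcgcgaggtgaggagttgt
MRPL50 (chr9:101398569-101398868, minus strand): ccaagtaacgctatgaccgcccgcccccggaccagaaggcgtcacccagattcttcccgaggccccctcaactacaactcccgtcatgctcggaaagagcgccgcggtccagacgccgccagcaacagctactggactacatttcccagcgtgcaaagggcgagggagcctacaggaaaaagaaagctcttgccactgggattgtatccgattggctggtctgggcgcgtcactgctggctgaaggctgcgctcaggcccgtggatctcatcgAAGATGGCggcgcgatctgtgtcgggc
MRPL51 (chr12:6493213-6493512, minus strand): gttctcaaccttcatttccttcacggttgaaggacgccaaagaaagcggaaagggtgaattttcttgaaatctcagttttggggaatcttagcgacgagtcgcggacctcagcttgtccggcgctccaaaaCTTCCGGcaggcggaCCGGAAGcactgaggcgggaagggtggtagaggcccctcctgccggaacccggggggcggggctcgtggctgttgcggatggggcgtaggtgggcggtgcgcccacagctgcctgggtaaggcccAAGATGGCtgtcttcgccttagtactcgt
MRPS30 (chr5:44808697-44808996, plus strand): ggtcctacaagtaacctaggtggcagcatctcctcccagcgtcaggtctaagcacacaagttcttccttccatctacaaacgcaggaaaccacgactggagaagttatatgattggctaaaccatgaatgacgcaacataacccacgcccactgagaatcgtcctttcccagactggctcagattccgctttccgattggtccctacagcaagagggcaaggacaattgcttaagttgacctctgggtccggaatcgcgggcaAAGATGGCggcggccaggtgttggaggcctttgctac
Both a gene that was lower and a gene that was not called thus carry the YY1 word. Over the 64 genes, 11 of 28 with the ETS word and 17 of 36 without it were called lower in knockout cells, and 6 of 16 with the YY1 word and 22 of 48 without it. These words are matches of letters and not measured sites.

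Seed matches for microRNAs were searched in the 3′ untranslated regions. These regions had a median length of 459 bases in the 73 genes, against 1343 bases over all protein-coding genes. Of the 73, 45 held none of the 9 seed words searched, and that share over all protein-coding genes is not given here. The part of the shorter regions in the numbers of matches was not tested. The microRNA shown is the one matched in the fewest of the 73 genes, with the seed (bases 2 to 8) in capitals, from RefSeq.
hsa-let-7a-5p: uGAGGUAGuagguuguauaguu
The word complementary to the let-7a seed, CTACCTC, was in 3 of the 73 genes, 4.11%, against 11.2% of 11789 protein-coding genes. The word of miR-29a-3p, TGGTGCT, was in 10 genes, 13.7%, against 16.8%, and that of miR-16-5p, TGCTGCT, in 4 genes, 5.48%, against 25.0%. The 10 genes with the miR-29a-3p word had a median log2 fold change of -0.26 in knockout against parental cells and the others -0.23. It was the only word of the 9 whose genes stood below the others. With and without the let-7a word the medians were -0.09 and -0.23, and for the miR-16-5p word -0.10 and -0.23. All protein-coding genes with the miR-29a-3p word stood at 0.07 and those without it at -0.01. Each of the other words gave a gap in that direction over all protein-coding genes. Protein-coding transcripts of 3000 bases or more stood at 0.08, and the part of length in these gaps was not tested.

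FH-WT cells were set against the knockout cells of the first comparison. Error in these shared knockout libraries moves both comparisons, in opposite directions. In the authors' deposited table of FH-WT against knockout cells, 7 of the 73 genes, 9.59%, were called higher and 0 lower, where 4.21% of all genes were called higher and 5.85% lower. The median was 0.12, against 0.01 over all genes, and 58 of 73 values lay above 0. The 7 genes encode the large-subunit proteins MRPL21, MRPL49, MRPL20, MRPL37, MRPL58 and MRPL13 and the small-subunit protein MRPS22. Length moved with these values too: under 1000 bases the median was 0.14 both for the 12 ribosomal protein genes and over all protein-coding genes, and after recentring by length the median of the 73 genes was 0.059. None of the 7 was called after recentring by length, where 4.07% of all genes were called higher and MRPS28, which overlaps another gene, was called lower, and none was called with the t distribution or at a 1.5-fold change.

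MRPL21 stood at 51.7 CPM in FH-WT and 41.3 CPM in knockout cells (0.32 ± 0.09, FDR 0.00664, the authors' deposited table). MRPL58, a peptidyl-tRNA hydrolase built into the large subunit that can release stalled chains, stood at 69.2 CPM in FH-WT and 57.6 CPM in knockout cells (0.26 ± 0.09, FDR 0.0442, the authors' deposited table). MRPS22, a protein specific to mitochondria that is mutated in an inherited respiratory chain disease, stood at 152 CPM in FH-WT and 125 CPM in knockout cells (0.29 ± 0.10, FDR 0.0492, the authors' deposited table). The remaining 4 ranged between 0.24 for MRPL49 (FDR 0.0235) and 0.32 for MRPL37 (FDR 0.0433), with MRPL20 at 0.31 (FDR 0.027) and MRPL13 at 0.28 (FDR 0.0459) in the authors' deposited table.

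FH-5xA cells were set against the same knockout cells. In the authors' deposited table of FH-5xA against knockout cells, 0 of the 73 genes were called higher and 1 lower, where 5.04% of all genes were called higher and 6.24% lower. The median was 0.03, against 0.01 over all genes, and 40 of 73 values lay above 0. The 1 gene was MRPS14, a small-subunit protein with a bacterial counterpart, at 27.4 CPM in FH-5xA and 32.5 CPM in knockout cells (-0.25 ± 0.09, FDR 0.0368, the authors' deposited table). It stayed called after recentring by length, at -0.27, where MRPL30 was called as well at -0.22, and none was called with the t distribution.

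Both reconstituted lines were also compared with parental cells, which the knockout comparison shares as its control. In FH-5xA against parental cells the authors' deposited table had 35 of 73 genes called lower, 47.9%, and 0 higher, where 20.9% of all genes were called lower and 22.9% higher, with a median of -0.22 against -0.0021 over all genes. In FH-WT against parental cells it had 17 genes called lower, 23.3%, and 1 higher, where 16.1% of all genes were called lower and 18.3% higher, with a median of -0.10. After recentring by length, 18 genes (24.7%) were called lower in FH-5xA, where 20.8% of all genes were, with a median of -0.12. In FH-WT 10 genes (13.7%) were then called lower, where 15.9% of all genes were, and 1 higher, with a median of -0.047. With the t distribution 22 genes (30.1%) were called lower in FH-5xA, against 14.7% of all genes, and 4 (5.48%) in FH-WT, against 9.5% of all genes.

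**Figure D3:**
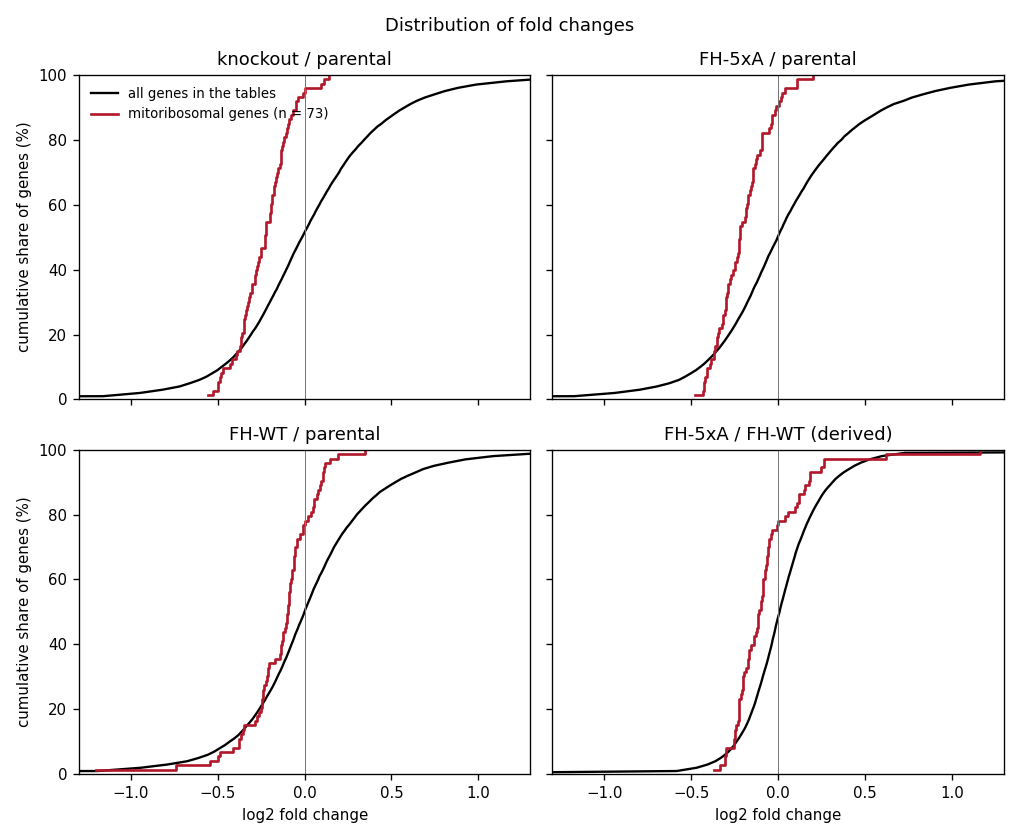
Cumulative share of genes, in percent, by log2 fold change in 4 comparisons, for the 73 mitochondrial ribosomal protein genes (red) and all genes in the tables (black). The red curves lie left of the black ones at the 50% level in all 4 panels, with medians of -0.23, -0.22, -0.10 and -0.11.

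In FH-5xA against parental cells the 8 genes with the smallest p were MRPL1, MRPS21, MRPS31, MRPL40, MRPL30, MRPL50, MRPL9 and MRPS18C. MRPL1 stood at 68.7 CPM in FH-5xA and 91.1 CPM in parental cells (-0.41 ± 0.07, FDR 6.27e-08, the authors' deposited table). MRPS31, a small-subunit protein specific to mitochondria, stood at 35.2 CPM in FH-5xA and 47.0 CPM in parental cells (-0.42 ± 0.08, FDR 1.02e-06, the authors' deposited table). MRPL40 stood at 40.8 CPM in FH-5xA and 54.9 CPM in parental cells (-0.43 ± 0.08, FDR 1.90e-06, the authors' deposited table). The other 5 lay between -0.48 for MRPS18C and -0.35 for MRPL9 in the authors' deposited table, and all 8 stayed called after recentring by length.

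In FH-WT against parental cells the 8 lower genes with the smallest p were MRPL11, MRPL2, MRPL50, MRPL30, MRPS28, MRPS18C, MRPS26 and MRPS16. All 8 stayed called after recentring by length, but MRPS28, MRPS18C, MRPS26 and MRPS16 were not called with the t distribution. MRPS28 overlaps another gene on its strand. MRPL11 stood at 76.9 CPM in FH-WT and 102 CPM in parental cells (-0.41 ± 0.08, FDR 7.27e-06, the authors' deposited table). MRPL2, a core protein near the peptidyl transferase centre, stood at 29.7 CPM in FH-WT and 37.9 CPM in parental cells (-0.35 ± 0.10, FDR 0.00246, the authors' deposited table). MRPS26, a small-subunit protein specific to mitochondria, stood at 25.0 CPM in FH-WT and 41.9 CPM in parental cells (-0.74 ± 0.23, FDR 0.00579, the authors' deposited table). The 1 gene called higher was MRPL22, a protein that lines the exit tunnel, at 65.4 CPM in FH-WT and 51.4 CPM in parental cells (0.35 ± 0.13, FDR 0.0201, the authors' deposited table). MRPL22 stayed called after recentring by length, at 0.31, but not with the t distribution or at an FDR under 0.01.

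No deposited table sets FH-5xA against FH-WT, so their difference was derived from the tables of each line against knockout cells. In this comparison 4 of the 73 genes, 5.48%, were called lower and 0 higher, where 2.13% of all genes were called lower and 1.98% higher (chi-square test with 1 degree of freedom, Benjamini-Hochberg adjusted over 15072 genes). The median was -0.11, against 0.01 over all genes, and 57 of 73 differences lay below 0. The 4 genes encode large-subunit proteins. None was called at an adjusted p under 0.01, with the t distribution or at a 1.5-fold change, and after recentring by length MRPL13 and MRPL35 stayed called, 2.74% of the 73 genes, where 2.32% of all genes were called lower.

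MRPL13, a conserved protein of the large subunit, stood at 103 CPM in FH-5xA and 134 CPM in FH-WT cells, with 110 CPM in knockout and 136 CPM in parental cells. The derived log2 difference was -0.37 ± 0.10 (adjusted p = 0.0125). MRPL35 stood at 100.5 CPM in FH-5xA and 119 CPM in FH-WT cells, with 107 CPM in both knockout and parental cells, a difference of -0.24 ± 0.07 (adjusted p = 0.0325). MRPL13 was lower in knockout against parental cells (-0.30 ± 0.10, FDR 0.0057), whereas MRPL35 stood at -0.01 ± 0.07 (FDR 0.939), in the authors' deposited table.

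MRPL51, which is specific to mitochondria, stood at 121 CPM in FH-5xA and 149 CPM in FH-WT cells, a difference of -0.30 ± 0.09 (adjusted p = 0.0327). MRPL9, a large-subunit protein with a bacterial counterpart, stood at 51.4 CPM in FH-5xA and 61.3 CPM in FH-WT cells, a difference of -0.26 ± 0.08 (adjusted p = 0.0433). The genes just past the threshold were MRPS22 at -0.30 (adjusted p = 0.0643) and MRPS15 at -0.22 (adjusted p = 0.078). The widest positive differences belonged to the GC-rich genes MRPL12 (1.16 ± 0.50, adjusted p = 0.16) and MRPS26 (0.62 ± 0.23, adjusted p = 0.0943). The median difference of the 73 genes was -0.13 under 45% GC and 0.12 at 60% or more, and over all protein-coding genes of those classes it was -0.04 and 0.17. The part of GC content in these values was not tested.

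**Figure D4:**
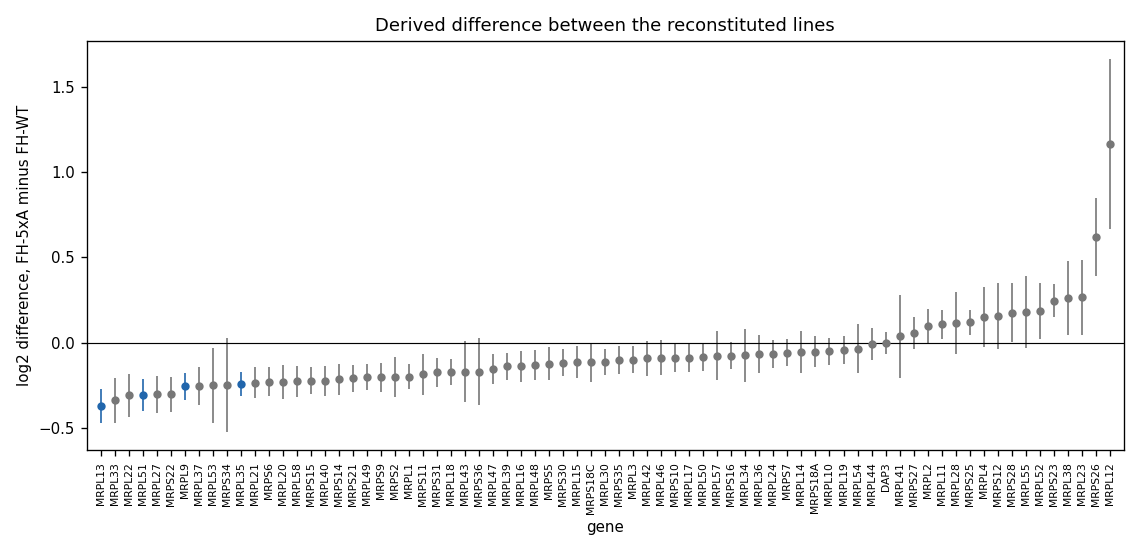
Derived log2 difference, FH-5xA minus FH-WT, for the 73 genes in rising order, each a point with a bar of 1 standard error. Blue points are MRPL13, MRPL51, MRPL9 and MRPL35, the 4 genes called lower. To the left 57 points lie below 0, and the highest point, MRPL12 at 1.16, has the widest bar.

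Other genes of mitochondrial translation were read from lists, with no adjustment for transcript length. Of 4 ribosomal proteins named otherwise, CHCHD1 was called lower in knockout against parental cells (-0.40 ± 0.15, FDR 0.015, the authors' deposited table) and the list's median was -0.35. Of 19 translation factors, with a median of -0.11, 6 (31.6%) were called lower and 0 higher, where 21.2% and 23.2% of all genes were. Among them were MTRES1, which rescues stalled ribosomes (-0.67 ± 0.13), GUF1, the homolog of the bacterial GTPase LepA (-0.33 ± 0.06), the initiation factor MTIF2 (-0.32 ± 0.09) and SLIRP, which binds mitochondrial messenger RNAs (-0.30 ± 0.09), all from the authors' deposited table. SLIRP was also called lower in FH-5xA against FH-WT cells, by the derived difference (-0.38 ± 0.09, adjusted p = 0.00628). It was the only one of the 19 so called (5.26%), where 2.13% of all genes were called lower.

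Of 29 assembly factors 7 (24.1%) were called lower and 3 (10.3%) higher in knockout against parental cells, with a median of -0.12. Over all genes 21.2% were called lower, near the share of this list, and 23.2% higher. The largest called changes of the list in each direction sat on chromosome 7: the rRNA methyltransferase MRM2 (-1.34 ± 0.08), MALSU1 (-1.20 ± 0.11), RCC1L (0.57 ± 0.08) and GTPBP10 (0.36 ± 0.08) in the authors' deposited table. Of the ribosomal protein genes of that chromosome, MRPL32 stood at -1.06 ± 0.09, MRPS17 at -0.38 ± 0.12 and MRPS33 at 0.25 ± 0.10 in the authors' deposited table. Outside it, MTERF3 (-0.41 ± 0.09) and the helicase DDX28 (-0.41 ± 0.11) were lower and NGRN (0.35 ± 0.08) higher in the authors' deposited table.

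Of 16 mitochondrial aminoacyl-tRNA synthetases, with a median of -0.20, 5 (31.25%) were called lower and 0 higher, where 21.2% and 23.2% of all genes were. Among the 5 were NARS2 (-0.51 ± 0.09), CARS2 (-0.39 ± 0.13) and AARS2 (-0.27 ± 0.10), which charge the tRNAs of asparagine, cysteine and alanine, in the authors' deposited table. Of 22 genes of mitochondrial transcription and RNA processing 9 (40.9%) were called lower and 3 (13.6%) higher, where 21.2% and 23.2% of all genes were. The median of the 22 genes was -0.10. The lowest was TBRG4, an RNA-binding protein of the FASTK family encoded on chromosome 7, at -1.18 ± 0.13 (FDR 1.41e-17) in the authors' deposited table. TFAM, which packages mitochondrial DNA and starts its transcription, was at -0.49 ± 0.08 (FDR 2.92e-08), TRMT10C, a subunit of mitochondrial RNase P, at -0.49 ± 0.09 and the transcription factor TFB2M at -0.26 ± 0.08 in the authors' deposited table. Of the 3 called higher, MTERF1 (0.26 ± 0.08) and FASTK (0.40 ± 0.16) also sit on chromosome 7, and PRORP, the nuclease of mitochondrial RNase P, was at 0.29 ± 0.11 in the authors' deposited table. Of 11 regulators of mitochondrial biogenesis or stress 4 (36.4%) were called lower and 3 (27.3%) higher, where 21.2% and 23.2% of all genes were. ATF4, of the integrated stress response, was at -0.89 ± 0.09 and the growth regulator MYC at -0.60 ± 0.12 in the authors' deposited table. DDIT3, a stress-induced transcription factor, was at -0.25 ± 0.11 in the authors' deposited table and was also lower in FH-5xA against FH-WT cells by the derived difference (-0.36 ± 0.11, adjusted p = 0.0292), while PPARGC1B, a coactivator of mitochondrial genes, was at 0.51 ± 0.11 in the authors' deposited table. GABPB1, a subunit of GABP, was at -0.40 ± 0.10, YY1 at 0.16 ± 0.07 and NRF1, encoded on chromosome 7, at 0.19 ± 0.08 in the authors' deposited table, and GABPA, the DNA-binding subunit of GABP, was not called (0.10 ± 0.12, FDR 0.52).

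RNAs of the mitochondrial genome, which the ribosome contains or translates, were read beside the protein genes. Of the 2 mitochondrial ribosomal RNAs, MT-RNR1 stood at 1.12 ± 0.48 (FDR 0.0468) and MT-RNR2 at 1.16 ± 0.70 (FDR 0.168) in knockout against parental cells in the authors' deposited table. In FH-WT against knockout cells the authors' deposited table had MT-RNR1 at 1.10 ± 0.48 (FDR 0.126) and MT-RNR2 at 3.21 ± 0.75 (FDR 7.95e-04). In FH-5xA against knockout cells MT-RNR1 stood at 0.73 ± 0.48 (FDR 0.36) and MT-RNR2 at 1.94 ± 0.71 (FDR 0.0544), neither called, in the authors' deposited table. Against parental cells both were called higher in both lines, MT-RNR1 at 1.85 ± 0.49 in FH-5xA (FDR 7.50e-04) and 2.22 ± 0.50 in FH-WT, and MT-RNR2 at 3.10 ± 0.74 in FH-5xA (FDR 1.62e-04) and 4.37 ± 0.79 in FH-WT, in the authors' deposited tables. Of the 13 mitochondrially encoded messenger RNAs, 8 (61.5%) were called higher in FH-WT against knockout cells with a median of 1.91, where 4.21% of all genes were. In FH-5xA against knockout cells 0 were called with a median of 0.36, where 5.04% of all genes were called higher and 6.24% lower. In knockout against parental cells only MT-ND6 was called (-1.13 ± 0.42, FDR 0.0193, the authors' deposited table). There 21.2% of all genes were called lower and 23.2% higher. Set against FH-WT, in the derived comparison, all 13 in FH-5xA lay below 0, with a median of -1.10, and none was called. These RNAs had wide errors, and the libraries were depleted of ribosomal RNA, whose effect on the 2 rRNAs was not tested.

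**Figure D5:**
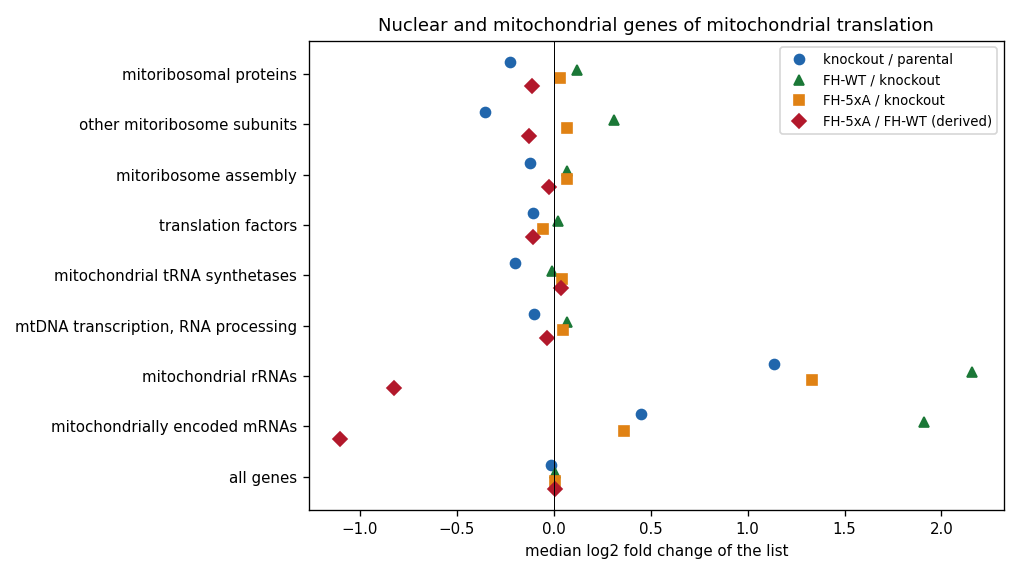
Median log2 fold change of each gene list in 4 comparisons, with the list names down the page and all genes at the bottom. The ribosomal protein genes lie at -0.23 in knockout against parental cells and at 0.12 in FH-WT against knockout cells, while the mitochondrially encoded messenger RNAs lie at 0.45 and 1.91.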

How the data were processed

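RNA of 12 HCT116 libraries in 4 groups of 3 was measured by stranded sequencing of total RNA. Per the submitters' processing notes the tools named are edgeR 3.8.6, featureCounts 1.4.6, TopHat2 2.0.12 and Cufflinks 2.2.1, on hg38/GRCh38. Not given in the sources used here are the annotation, the low-count filter, the strand setting and the normalization factors. Per the file headers, the 5 deposited edgeR tables hold a log2 fold change, a log2 mean expression in CPM, a p-value, an FDR and a likelihood ratio score for each of 15074 genes.

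Tests on counts had been planned, but the deposited tests were used because only these tables were at hand. The SE of a log2 fold change was taken from the deposited score, with its square root read as the fold change in units of its SE. That reading is approximate, and the test of the derived difference rests on it. FH-5xA minus FH-WT was the difference of the tables against knockout cells, with its variance solved from the 5 squared SEs, tested by chi-square with 1 degree of freedom and adjusted by Benjamini-Hochberg over 15072 genes; in 2 genes it was undefined. Intervals are the estimate plus or minus 1.96 SE.

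Genes named are, for each of 6 comparisons, up to 8 called genes with the smallest p in each direction, the 3 highest and 3 lowest by mean expression, and 8 fixed genes, and for the other lists up to 4 called genes with the smallest p per direction in the knockout and derived comparisons. Others named for the length, GC, overlap or sign of their values were chosen after those were seen. The members and lists were chosen with earlier results of these data known.

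Transcript length, GC content and 3′ untranslated regions come from the longest protein-coding transcript in GENCODE 29, and promoters and microRNAs from RefSeq. Some items withheld from this text are not reported here. Alternatives were a stricter FDR of 0.01, a 1.5-fold minimum, a t distribution with 8 degrees of freedom, a mean expression of at least 4 log2 CPM, recentring on several medians, and other gene sets. Computations used Python 3.11.15, numpy 2.4.6, pandas 2.3.3 and scipy 1.17.1.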

Additional observations from a re-analysis of the deposited data

Results flagged for a closer look

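In 4 genes the effect of FH-5xA against knockout cells differed from that of FH-WT against knockout cells by the derived test of the difference itself. MRPL13 differed by -0.37 (adjusted p = 0.0125), at -0.09 ± 0.10 with FH-5xA and 0.28 ± 0.10 with FH-WT in the authors' deposited tables. MRPL35 differed by -0.24 (adjusted p = 0.0325), at -0.09 ± 0.07 with FH-5xA and 0.15 ± 0.07 with FH-WT in the authors' deposited tables. MRPL51 differed by -0.30 (adjusted p = 0.0327), at -0.10 ± 0.09 with FH-5xA and 0.21 ± 0.09 with FH-WT in the authors' deposited tables. MRPL9 differed by -0.26 (adjusted p = 0.0433), at -0.16 ± 0.08 with FH-5xA and 0.10 ± 0.08 with FH-WT in the authors' deposited tables. Each of the 4 lay below 0 with FH-5xA and above 0 with FH-WT, but of these values only that of MRPL13 with FH-WT was called. None of the 4 differences was called with the t distribution, and only those of MRPL13 and MRPL35 stayed called after recentring by length.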

How the results depend on the processing

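The median over the 73 genes kept its direction under every alternative, with 1 exception: recentred by transcript length, an alternative chosen after seeing the data, FH-5xA against knockout cells moved to -0.015. The same recentring gave medians of -0.090 in knockout and -0.12 in FH-5xA, both against parental cells, of 0.059 in FH-WT against knockout cells and of -0.047 in FH-WT against parental cells, and called 14 genes in the knockout comparison, 1 in FH-WT and 2 in FH-5xA against knockout cells, 11 in FH-WT and 18 in FH-5xA against parental cells, and 2 in the derived difference, against 34, 7, 1, 18, 35 and 4 without it. In that order of comparisons, a minimum change of 1.5-fold left 0, 0, 0, 2, 0 and 0 genes. The t distribution, again in that order, left 21, 0, 0, 4, 22 and 0. An FDR under 0.01 left 1 in FH-WT and 0 in FH-5xA against knockout cells, 10 in FH-WT against parental cells and 0 in the derived difference. Recentred on the median of all genes, 4 were called in FH-WT and 2 in FH-5xA against knockout cells; outside chromosome 7 that last count was also 2, and within GC classes, likewise chosen after seeing the data, 0. Of 106 values of 35 named genes, recomputed under up to 10 alternatives that keep the gene set, 837 recomputed values kept their direction and call, 104 lost the call, 4 gained it and none reversed with a call. The cause of these moves was not tested.

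Libraries were not left out in turn and depth is unknown, since values per library were not used. No paired analysis was possible because the deposited tables hold no values per library.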
